A study of Mus musculus with 11 samples.

Results

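Connexins are the subunits of gap junctions, the channels that join the cytoplasm of neighbouring cells. In the cochlea, Gjb2 and Gjb6 encode the main subunits of the network that couples supporting cells and other non-sensory epithelial cells. Ions and small metabolites pass through this network from cell to cell, and loss of Gjb2 causes deafness in people and mice. Gja1 encodes the connexin found widely in epithelia, heart and glia, and Gjc1 a connexin known from the heart conduction system and early development. Sensory hair cells (HCs) are not coupled by gap junctions, and the supporting cells around them are. Kölliker's organ (KO) is the transient epithelium medial to the HCs, where connexin-linked calcium waves are known before the onset of hearing, and inner phalangeal cells (IPhCs) are the supporting cells that wrap the inner HCs at its lateral edge.

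These 4 connexin genes were chosen by name and taken as their rows in the expression table of each age. All 4 were listed at all 4 ages, among 18667 genes listed at every age. The samples were 11 single-cell libraries of the floor of the cochlear duct from wildtype CD1 mice at E14 (2 libraries), E16 (3), P1 (4) and P7 (2, numbered 4 and 5), and no group carried an allele or a treatment. Each library came from several pups or embryos of 1 litter, pooled before dissociation, so a library stands for a litter and not for an animal. The data held 30634 cells, with median counts of 2478 to 5648 unique molecular identifiers (UMIs) per cell in a library.

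Gjb2 and Gjb6 are neighbours. In mm10, Gjb2 lies at chr14:57098600-57104702 on the minus strand in 2 exons, and Gjb6 at chr14:57123303-57133611 on the same strand, with 3 exons in its first annotated transcript. The 18600 bases between them hold 1 annotated gene, Gm4491. Gja1 lies at chr10:56377330-56402513 on the plus strand and Gjc1 at chr11:102799579-102819700 on the minus strand. The 250 bases before the RefSeq start of Gjb2 (chr14:57104703-57104952, minus strand) and of Gjb6 (chr14:57133612-57133861, minus strand) are shown because these neighbouring genes have the same direction of change in several comparisons. Both are printed 5′ to 3′ from the RefSeq table of build GRCm38.p6, with matches to GGGCGG or TTAAAA on either strand in capitals.
Gjb2: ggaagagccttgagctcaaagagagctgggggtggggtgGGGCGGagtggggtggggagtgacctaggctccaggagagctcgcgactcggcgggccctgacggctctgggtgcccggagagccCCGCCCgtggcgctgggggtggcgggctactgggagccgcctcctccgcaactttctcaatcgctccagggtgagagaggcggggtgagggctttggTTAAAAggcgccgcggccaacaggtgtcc
Gjb6: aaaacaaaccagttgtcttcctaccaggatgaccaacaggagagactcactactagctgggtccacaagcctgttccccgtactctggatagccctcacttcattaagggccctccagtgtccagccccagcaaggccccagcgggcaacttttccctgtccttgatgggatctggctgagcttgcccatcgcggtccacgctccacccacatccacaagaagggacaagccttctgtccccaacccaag
The motifs searched, on both strands, were the GC box GGGCGG, the box of letters CCAAT, the A/T-rich TTAAAA and the related form TATAAA, of which the last pair can share bases. The Gjb2 stretch has a GC content of 69.2%, with GGGCGG 211 to 206 bases before the start, its reverse complement 126 to 121 bases before it, and TTAAAA 29 to 24 bases before it. The Gjb6 stretch has a GC content of 56.8% and holds none of these letters. Of 32851 promoter windows of this table, 32.7% hold GGGCGG, 33.8% CCAAT, 17.7% TTAAAA and 12.4% TATAAA, and their median GC content is 52.4%.

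Over the whole duct floor, transcripts of Gjb2 and Gjb6 were higher in postnatal than in earlier libraries. Those of Gja1 were lower in postnatal libraries, and those of Gjc1 were lower at P7. Levels are given as counts per 1000000 UMIs (CPM), averaged over the cells of a library. The 4 genes are not compared with each other in level. Gjb2 was at 627 and 504 CPM in the E14 libraries, at 454, 511 and 682 CPM at E16, at 701, 699, 761 and 800 CPM at P1, and at 1644 and 1163 CPM at P7. The E14 and E16 ranges overlapped, and both P7 libraries lay above every earlier one. Gjb6 was at 23.2 and 15.3 CPM at E14, at 40.8, 29.9 and 46.6 CPM at E16, at 104, 79.2, 114 and 205 CPM at P1, and at 228 and 152 CPM at P7. E14, E16 and P1 did not overlap for Gjb6, whereas the highest P1 library lay above the lower P7 library. Gja1 was at 22.5 and 23.4 CPM at E14, at 16.4, 19.5 and 18.2 CPM at E16, at 4.93, 8.61, 6.75 and 6.62 CPM at P1, and at 4.26 and 3.06 CPM at P7, in an order of ages with no overlap. Gjc1 was at 30.6 and 30.8 CPM at E14, at 23.3, 23.4 and 14.6 CPM at E16, at 14.9, 23.7, 22.5 and 35.5 CPM at P1, and at 6.58 and 5.998 CPM at P7. Only its P7 libraries stood apart from the other ages. In averages over all cells, fewer cells of a type and less RNA per cell cannot be told apart.

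Neighbouring ages were compared with limma on log2(CPM + 10), with Benjamini-Hochberg adjustment over all genes tested and a threshold of 0.05. Added to low levels, the pseudocount of 10 CPM makes a fold change smaller than the ratio of the levels. From E14 to E16, none of the 4 genes passed, beside 8.18% of all genes tested. Gjb2 had a log2 difference of -0.05 (SE 0.22, adjusted p = 0.896) and Gjb6 one of 0.75 (SE 0.32, adjusted p = 0.162). At an unadjusted p under 0.05, 1 of the 4 passed, which was Gjb6. From E16 to P1, 2 of the 4 passed, beside 12.7% of all genes. Gjb6 rose by 1.40 (SE 0.27, adjusted p = 0.00473), and Gja1 fell by 0.75 (SE 0.12, adjusted p = 0.00161). Gjb2 had a difference of 0.44 (SE 0.18, adjusted p = 0.129), which reached the threshold without E16 replicate 3 (0.61, adjusted p = 0.039). From P1 to P7, 2 of the 4 passed, beside 20.5% of all genes. Gjb2 rose by 0.90 (SE 0.21, adjusted p = 0.00811), and Gjc1 fell by 1.04 (SE 0.22, adjusted p = 0.00447). Gjb6 had a difference of 0.61 (SE 0.30, adjusted p = 0.181) and Gja1 one of -0.29 (SE 0.14, adjusted p = 0.159).

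Several libraries touch these values. Without P7 replicate 4, the P7 difference of Gjb2 was 0.65 (adjusted p = 0.166). That of Gjc1 kept its size but missed the threshold without P7 replicate 4 or 5 (adjusted p = 0.0501 and 0.0560). Without P1 replicate 4, Gjb6 passed from P1 to P7 (0.86, adjusted p = 0.016) and also from E14 to E16 (0.75, adjusted p = 0.042). That library had 5 neuron markers at a sum of 94.6 CPM, against 249 to 289 CPM in the other P1 libraries and 37.1 to 70.3 CPM at the other ages. The part of these markers in the steps from E16 to P1 and from P1 to P7 was not tested. The P7 libraries had higher summed levels of 8 glial markers (1018 and 3007 CPM, against 146 to 260 at other ages) and of 8 mesenchymal markers (368 and 923 CPM, against 18.5 to 44.7 at other ages). With cells of those and other non-epithelial gates left out, the P7 difference was 0.97 for Gjb2 (adjusted p = 0.004) and 0.69 for Gjb6 (adjusted p = 0.121). This removal may be partial, as the P7 gates held 100 glial and 84 mesenchymal cells. In a clustering of the P7 cells, clusters of 85, 78 and 15 cells were named glia and clusters of 216 and 42 cells mesenchyme.

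**Figure D1:**
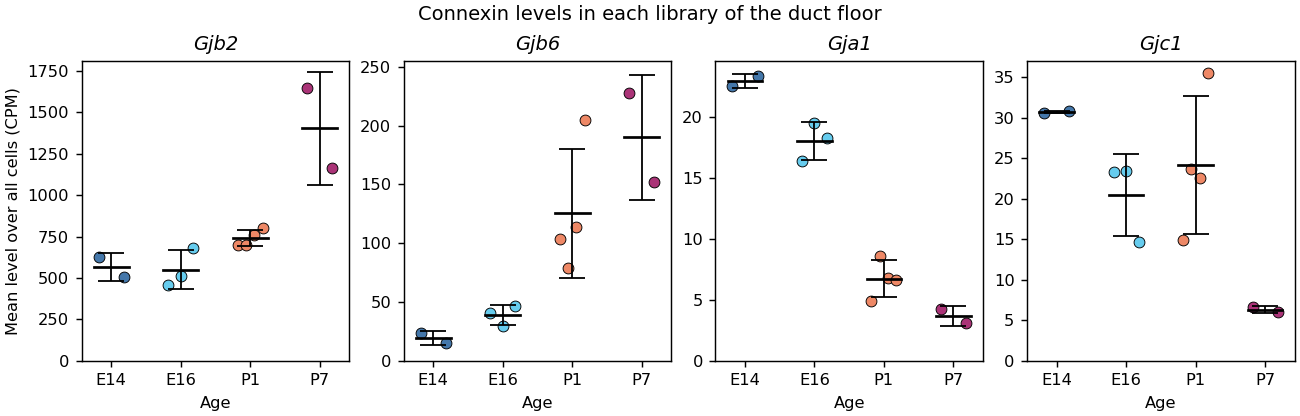
Level of each of the 4 connexin genes over all cells of the duct floor, in CPM on a linear axis from 0 against age, with 1 point per library and, for each age, a line at the mean and bars of 1 SD. Gjb2 and Gjb6 reached 1644 and 228 CPM at P7, and Gja1 and Gjc1 were at most 4.26 and 6.58 CPM there.

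Cells were assigned to groups by marker genes that include no connexin. A cell entered a group when at least 3 of the group's markers were above 0 and its mean marker score passed a cut set within its age. Between 67.5% and 81.6% of the cells of an age passed no such gate and are called ungated, and cells that passed several were left out. The labelled tissue held its defining cells at every age, with 20 gated HCs in the E14 libraries, 425 in those of E16, 1000 in those of P1 and 243 in those of P7. Within each library, the cells of a gate were set against all other cells, with the library as a block in limma. Over the 30 comparisons reported here, the median log2 difference of all genes tested lay between -0.38 and 0.13.

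HCs held less Gjb2, Gjb6 and Gjc1 RNA than the other cells, and for Gjb2 and Gjb6 the gap was wider at P1 than at E16. Gjb2 in HCs was at 78.5 and 137 CPM at E14, at 134, 150 and 37.4 CPM at E16, at 47.6, 21.7, 26.4 and 29.8 CPM at P1, and at 49.2 and 77.8 CPM at P7. In the other cells of the same libraries, Gjb2 was at 506 to 633 CPM at E14, at 483 to 701 CPM at E16, at 744 to 864 CPM at P1 and at 1265 to 1754 CPM at P7, with no overlap with HCs. Gjb6 in HCs stayed at 0 to 8.94 CPM in all 11 libraries, where the other cells went from 15.4 and 23.4 CPM at E14 to 243 and 166 CPM at P7. Gja1 was too low in this comparison to be tested, with 0, 3, 1 and 1 UMIs in the HCs of the 4 ages.

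Each of the 3 tested genes was called lower in HCs at each age, though at E14 the calls of Gjb6 and Gjc1 rest on 1 UMI each. These were 3 of 3 in E14 libraries, beside 38.1% of all genes, and 3 of 3 at the later ages, beside 32.4% (E16), 52.7% (P1) and 46.4% (P7). The log2 difference of Gjb2 was -2.34 (SE 0.44, adjusted p = 0.0011) at E14, -2.49 (SE 0.36, adjusted p = 0.000119) at E16, -4.32 (SE 0.31, adjusted p = 7.37e-08) at P1 and -4.38 (SE 0.44, adjusted p = 3.16e-06) at P7. For Gjb6 it was -1.21, -1.74, -3.20 and -3.84 at the same ages, with adjusted p from 0.00236 at E14 to 7.77e-09 at P1. The E14 value of Gjb6 rests on 1 UMI in 20 HCs, where 3 UMIs would be 25.2 CPM, above the level in the other cells, so a lower level was not resolvable at that depth. Gjc1 was lower in HCs by 1.55, 1.53, 1.27 and 0.75 (adjusted p from 0.000137 to 0.0485), but its E14 value also rests on 1 UMI. At P7 no Gjc1 UMI was found in 243 HCs, where 3 UMIs would be 1.69 CPM, against 7.03 and 6.52 CPM in the other cells. That P7 call was lost without either P7 library (adjusted p = 0.243 and 0.222) and without E16 replicate 1 or 2 or P1 replicate 1 or 3 (adjusted p from 0.0511 to 0.0653), and also with a looser or stricter gate, no filter, no library block or pooled UMIs (adjusted p from 0.0567 to 0.115). The difference between HCs and other cells was larger at P1 than at E16 for 2 of the 3 genes, beside 8.97% of all genes. It changed by -1.83 for Gjb2 (SE 0.47, adjusted p = 0.0301) and by -1.46 for Gjb6 (SE 0.27, adjusted p = 0.00611). The Gjb2 change did not pass with a looser gate (-1.52, adjusted p = 0.099), a pseudocount of 1 CPM (-2.06, adjusted p = 0.067) or no filter on low values (-1.83, adjusted p = 0.067), and the Gjb6 change did not pass with a pseudocount of 1 CPM (-1.77, adjusted p = 0.101). Without E16 replicate 1 or 2, or P1 replicate 2, 3 or 4, the Gjb2 change was -1.48 to -1.79 and did not pass (adjusted p from 0.0787 to 0.163). From P1 to P7, the change of the difference passed for none of the 3, beside 17.7% of all genes (adjusted p = 0.962 for Gjb2 and 0.195 for Gjb6), and none had an unadjusted p under 0.05.

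The IPhC gate, set by 6 markers, stood at the other end. In a clustering of the E14 cells no cluster was named IPhC, and whether the 13 gated cells of that age are IPhCs was not tested. Gjb2 was at 3756 and 2848 CPM at E14, at 2574, 3124 and 4198 CPM at E16, at 4178, 4213, 4361 and 4980 CPM at P1, and at 4271 CPM in the single P7 library with at least 5 such cells. The other cells of the same libraries held 498 to 623, 431 to 636, 626 to 758 and 1632 CPM. From E14 to P1, the gate had the highest Gjb2 level of all groups, and its range did not overlap that of the next group, the ungated cells. Gjb6 was at 111, 250 and 293 CPM at E16, at 737, 518, 821 and 1191 CPM at P1 and at 707 CPM at P7, against 28.1 to 43.7, 70.6 to 195 and 225 CPM in the other cells. At E14 no Gjb6 UMI was found in the 13 gated cells. With 65144 UMIs in them, 3 UMIs would be 46.1 CPM, so a level up to that floor could not be set against that of the other cells (15.4 and 23.3 CPM), and the share of cells with a Gjb6 UMI could be up to 23.1%.

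At E16 and at P1, 2 of the 4 genes were higher in IPhCs, beside 4.12% and 5.26% of all genes. These were Gjb2, with log2 differences of 2.64 (SE 0.09, adjusted p = 1.57e-10) and 2.69 (SE 0.08, adjusted p = 1.31e-11), and Gjb6, with 2.18 (SE 0.31, adjusted p = 0.000648) and 2.77 (SE 0.27, adjusted p = 9.47e-06). At E14, 1 gene was higher, Gjb2 with 2.53 (SE 0.12, adjusted p = 5.85e-09), and Gjb6 was called lower from its 0 UMIs, a call the depth cannot carry, beside 10.8% of all genes. At P7, 1 gene was higher, beside 2.3% of all genes. The P7 difference of Gjb2 was 1.38 (SE 0.16, adjusted p = 0.000202) and that of Gjb6 1.61 (SE 0.54, adjusted p = 0.146, 95% interval 0.46 to 2.76), from 1 library that is assumed to vary like the others. Without the library block that of Gjb2 did not pass (adjusted p = 0.0533). The Gjb6 difference passed with a looser gate (2.08, adjusted p = 0.000372), with a stricter gate (1.89, adjusted p = 0.0383) and without E16 replicate 1 (adjusted p = 0.0386). The Gjb2 difference was smaller at P7 than at P1 (change -1.31, SE 0.18, adjusted p = 0.00163), the single call among the 4 genes beside 1.37% of all genes. It did not pass without the library block (adjusted p = 0.189), and its P7 side is 1 library of 11 gated cells, so no spread between P7 litters enters it. The P7 level in the gate lay within its P1 range, while that of the other cells was higher at P7. Gja1 and Gjc1 passed in none of the 5 comparisons of this gate. In the P1 gate, 97% of cells had Matn4, 94% Fabp7, 77% Jag1 and 38% Tbx2. At P7, 29% of the gated cells had Matn4, against 12% outside, and the P7 gate held 14 cells in all. Fabp7 and Fgf3 are also known from lateral KO and Deiters' cells, so the gate may hold neighbours of IPhCs.

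**Figure D2:**
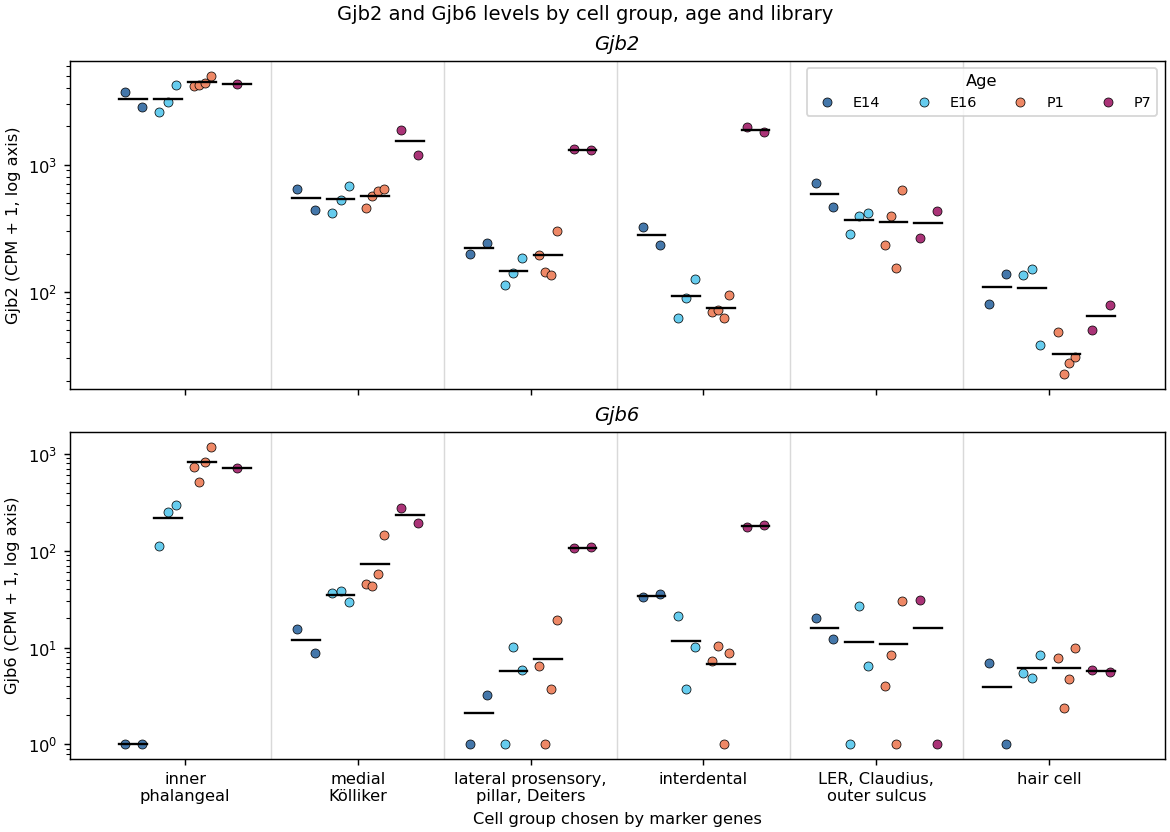
Levels of Gjb2 (top) and Gjb6 (bottom), as CPM + 1 on a log axis, by marker-gated group and age (colours), with 1 point per library and a line at the mean. LER is the lesser epithelial ridge, lateral to the HCs. Inner phalangeal cells stand at the top for Gjb2, up to 4980 CPM at P1, and hair cells near the bottom, with Gjb2 down to 21.7 CPM at P1.

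Lateral prosensory cells and the pillar and Deiters' cells they give rise to were gated together by 11 markers such as Fgfr3, Prox1 and Hes5. This gate held little Gjb6 up to P1, and both Gjb2 and Gjb6 were higher in it at P7. Gjb2 was at 197 and 239 CPM at E14, at 112, 139 and 184 CPM at E16, at 193, 142, 134 and 299 CPM at P1, and at 1328 and 1294 CPM at P7. Both P7 libraries lay above all earlier ones, which overlapped from age to age. Gjb6 was at 0 and 2.21 CPM at E14, at 0, 9.10 and 4.92 CPM at E16, at 5.43, 0, 2.70 and 18.5 CPM at P1, and at 105 and 109 CPM at P7. Up to P1 this range overlapped that of HCs at every age, so it was not told apart from the HC level. At P7 it lay above that of HCs (4.91 and 4.60 CPM). The Gjb2 range of the gate overlapped that of HCs at E16 (37.4 to 150 CPM). At E14, P1 and P7 the Gjb2 range of the gate lay above that of HCs. No background level was measured, so low expression and background cannot be told apart where the ranges overlap.

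Within these cells, none of the 3 tested genes passed from E14 to E16 or from E16 to P1, beside 2.35% and 2.69% of all genes. None of them had an unadjusted p under 0.05 in either step. From P1 to P7, 2 of the 3 rose, beside 7.68% of all genes. The log2 difference was 2.78 for Gjb2 (SE 0.31, adjusted p = 2.99e-06) and 2.93 for Gjb6 (SE 0.44, adjusted p = 0.000123), and Gjc1 had one of -1.14 (SE 0.52, adjusted p = 0.214). Against the other cells, 2 of the 3 genes were lower in this gate at E14, E16 and P1, beside 7.19%, 17% and 21.5% of all genes. Gjb2 was lower by 1.35, 1.90 and 2.01 (adjusted p = 0.00018, 1.66e-07 and 4.43e-09), and Gjb6 by 1.41, 1.81 and 3.12 (adjusted p = 0.00942, 7.22e-05 and 7.97e-09). The E14 value of Gjb6 rests on 1 UMI. Both E14 calls were lost without E14 replicate 1 (-1.06, adjusted p = 0.058 for Gjb2 and -1.07, adjusted p = 0.292 for Gjb6), that of Gjb2 with a looser gate (-0.61, adjusted p = 0.194), and that of Gjb6 with a stricter gate (-1.28, adjusted p = 0.112) or without the library block (-1.41, adjusted p = 0.092). At P7 none of the 3 passed, beside 23.6% of all genes, with a difference of -0.08 for Gjb2 (adjusted p = 0.81, 95% interval -0.49 to 0.33) and of -0.76 for Gjb6 (SE 0.32, adjusted p = 0.0941). Of these, Gjb6 alone had an unadjusted p under 0.05, and it passed with Leiden clusters in place of gates (-0.67, adjusted p = 0.0296), with a stricter gate (-1.51, adjusted p = 0.0226) and without E16 replicate 1 (adjusted p = 0.0333). The change of this difference from P1 to P7 passed for 2 of the 3 genes, beside 12.8% of all genes, at 1.93 for Gjb2 (SE 0.24, adjusted p = 2.58e-05) and 2.36 for Gjb6 (SE 0.39, adjusted p = 0.00046). The P7 values rest on 33 and 38 gated cells. Whether this gate holds the same cell types at P7 as at P1 was not tested.

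In medial KO, gated by 12 markers, Gjb2 and Gjb6 were lower than in the other cells at P1. Within the gate, both were higher at P7 than at P1. The other cells included IPhCs and ungated cells, which averaged 4433 and 857 CPM of Gjb2 at P1. No gate was set for lateral KO, so the comparison with other cells does not describe KO as a whole. Gjb2 was at 647 and 438 CPM at E14, at 412, 524 and 673 CPM at E16, at 457, 561, 624 and 640 CPM at P1, and at 1884 and 1194 CPM at P7. Its levels overlapped from E14 to P1, and P7 stood above them. Gjb6 was at 14.5 and 7.75 CPM at E14, at 35.9, 37.2 and 28.6 CPM at E16, at 44.4, 42.3, 56.3 and 146 CPM at P1, and at 277 and 192 CPM at P7, with no overlap between ages. Gja1 in this gate was at 31.9 and 27.0 CPM at E14, at 17.4, 23.3 and 27.8 CPM at E16 and at 6.93, 15.8, 8.42 and 8.83 CPM at P1. No Gja1 UMI was found in the 30 gated P7 cells, where 3 UMIs would be 16.6 CPM, above all P1 levels, so a lower level at P7 was not detectable.

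Within the gate, none of the 4 passed from E14 to E16 or from E16 to P1, beside 0.913% and 3.2% of all genes. At an unadjusted p under 0.05, Gja1 passed from E16 to P1 (-0.72, SE 0.27, adjusted p = 0.191), as did Gjb6 from E14 to E16 (1.07, SE 0.43, adjusted p = 0.325). From P1 to P7, Gjb2 rose by 1.39 (SE 0.27, adjusted p = 0.00232) and Gjb6 by 1.71 (SE 0.41, adjusted p = 0.00786, or 0.119 with a stricter gate), and with Gja1, called lower from 0 UMIs, 3 of the 4 passed, beside 23.7% of all genes. With a looser gate the Gja1 difference was 0.12 (adjusted p = 0.786). Against the other cells, none passed at E14 or E16, beside 2.99% and 6.66% of all genes, where 1 of the 4, Gjb6 at E14, had an unadjusted p under 0.05 (-0.51, adjusted p = 0.44) and passed with a looser gate (-0.61, adjusted p = 0.0352). At P1, 2 of the 4 were lower, beside 6.03% of all genes, Gjb2 by 0.43 (SE 0.07, adjusted p = 0.002) and Gjb6 by 0.90 (SE 0.15, adjusted p = 0.00249). Without the library block, these had adjusted p of 0.602 and 0.180, and with a stricter gate the Gjb6 call was lost (-0.84, adjusted p = 0.472). At P7 none passed, beside 31.7% of all genes, with 0.11 for Gjb2 (adjusted p = 0.416) and 0.29 for Gjb6 (adjusted p = 0.325), and Gja1 had an unadjusted p under 0.05. The change from P1 to P7 passed for 3 of the 4, beside 19.6% of all genes, at 0.54 for Gjb2 (SE 0.12, adjusted p = 0.0107), 1.19 for Gjb6 (SE 0.27, adjusted p = 0.00958) and -0.74 for Gja1, again from 0 UMIs (adjusted p = 0.0494). Without the library block the changes of Gjb2 and Gjb6 did not pass (adjusted p = 0.415 and 0.211), nor did that of Gjb6 with a stricter gate (0.99, adjusted p = 0.242). The P7 gate held 14 and 16 cells, or 0.888% of the cells of that age against 10.7% at P1. Of these P7 cells, 9 lay within 10% of the cut. No P7 Leiden cluster was named medial KO, so that alternative covers none of these P7 values. In the P7 gate Gjb2 and Gjb6 averaged 1539 and 235 CPM, against 1602 and 220 CPM in ungated cells. Whether the gate holds the same cell type at P7 as at P1 was not tested.

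**Figure D3:**
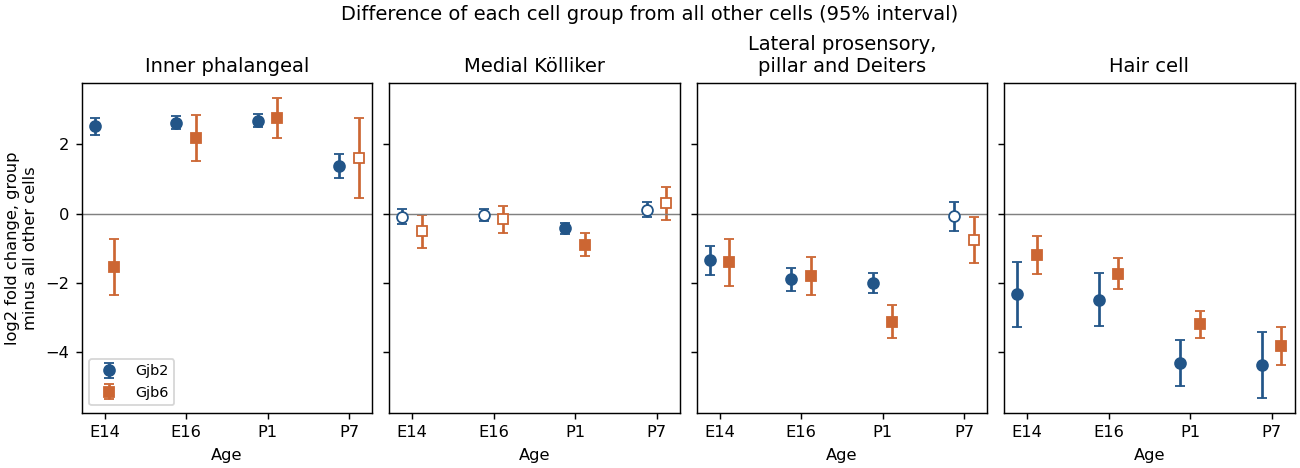
Log2 difference between each gated group and the other cells of the same libraries by age for Gjb2 and Gjb6, with points at the limma estimate, filled where the adjusted p passed, and bars at its 95% interval. The E14 inner phalangeal point of Gjb6 comes from 0 UMIs. Hair cells lie lowest for Gjb2, at -4.38 at P7, inner phalangeal cells lie above 0 for Gjb2 at every age, and the lateral gate moves to -0.08 for Gjb2 at P7.

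Interdental cells, which line the medial border of the duct floor, were given as levels and not tested. Gjb2 was at 325 and 234 CPM at E14, at 61.8, 88.7 and 125 CPM at E16, at 68.6, 71.2, 60.9 and 93.6 CPM at P1, and at 1966 and 1801 CPM at P7. Gjb6 was at 32.1 and 34.8 CPM at E14, the highest measured in a gate at that age, where 0 UMIs in the IPhC gate and in the 7 Hensen's cells would also allow up to 46.1 and 99.0 CPM, at 2.76 to 20.4 CPM at E16, at 0 to 9.33 CPM at P1, and at 173 and 184 CPM at P7. The P7 gate held 26 and 8 cells with fewer of its markers, as 44% of them had Otoa and 35% Smoc2, against 95% and 97% at P1. In the gate of the lesser epithelial ridge with Claudius' and outer sulcus cells, on the lateral side of the floor, Gjb2 averaged 587 CPM ± 178 (SD, n = 2) at E14, 364 ± 68.9 (n = 3) at E16, 353 ± 213 (n = 4) at P1 and 350 ± 118 (n = 2) at P7, and the ranges of neighbouring ages from E16 on overlapped. Among the groups with values in both P7 libraries, interdental cells had the highest mean Gjb2, 1883 CPM. Ungated, medial KO and lateral cells followed down to 1311 CPM, with overlapping neighbours. Below them came the gate of the lesser epithelial ridge (350 CPM) and mesenchyme (146 CPM ± 115, SD, n = 2). Lowest were HCs (63.5 CPM ± 20.3, SD, n = 2), whose range overlapped that of mesenchyme, and glia (12.9 CPM ± 14.9, SD, n = 2).

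Per cell, Gjb6 was found mostly in cells that also had Gjb2. Each cell was thinned to 1500 UMIs so that depth was equal, which left out 1 cell of 30634. Pooled over the libraries of an age, the share of cells with a Gjb2 UMI was 43.2% for E14, 39.7% for E16, 50.4% for P1 and 65.7% for P7, and the share with a Gjb6 UMI was, in the same order, 2.87%, 4.87%, 14.2% and 19.5%. In HCs, given for comparison, 5%, 11.3%, 3.40% and 7.41% of cells had a Gjb2 UMI and 0, 0.706%, 1.10% and 0.412% a Gjb6 UMI. Their median depths before thinning were 4857, 3587, 6703 and 7081 UMIs, against 3400, 2718, 4924 and 4688 over all cells. Both transcripts were in 1.98%, 3.54%, 10.7% and 17.2% of cells. Of the cells with Gjb6, 68.9%, 72.7%, 75.5% and 88.2% also had Gjb2, while of the cells with Gjb2, 4.59%, 8.92%, 21.3% and 26.2% also had Gjb6.

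Co-detection was compared with the product of both shares in the same library. The ratio of observed to expected was above 1 in each of the 11 libraries, with values of 1.55 and 1.60 for E14, of 1.82, 1.84 and 1.76 for E16, of 1.65, 1.51, 1.56 and 1.39 for P1, and of 1.27 and 1.42 for P7. The other 5 pairs of the 4 genes had ratios above 1 in 3 to 8 of the 11 libraries, but some of them had few expected cells. A library had 0.0849 to 5.05 expected cells for Gja1 with Gjc1 and 1.06 to 10.1 for Gjb6 with Gja1. For Gjb2 with Gjb6 it had 15.9 to 583. At the lower counts the ratio moves with single cells, so the pairs are not ranked. Within medial KO, pooled by age, the ratio was 1.06, 1.15, 1.03 and 1.11, and within ungated cells it was 1.60, 1.71, 1.27 and 1.18, with no test between groups. In HCs, and in interdental and lateral cells up to P1, so few cells held both transcripts that no ratio is read. Of the IPhCs, 95.3%, 99.1% and 100% had Gjb2 at E16, P1 and P7, which leaves the ratio little or no room above 1, and 31.8%, 64.9% and 35.7% had Gjb6. Thinned to 2500 UMIs, 50.8%, 80.0% and 81.8% of them had Gjb6, the last from 11 cells, so no fall from P1 to P7 is read from these shares. In the lateral gate, 26.0%, 11.1%, 26.4% and 74.6% of cells had Gjb2 and 0, 1.01%, 1.04% and 14.1% had Gjb6. Its Gjb6 share up to P1 was within the binomial interval of the HC share, and at P7 it was above it (exact 95% intervals 6.97% to 24.4% and 0.0104% to 2.27%, which cover counting error only).

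The ratio averaged 1.72 ± 0.130 in the 5 embryonic libraries and 1.47 ± 0.136 (SD) in the 6 postnatal ones, a difference of -0.25 (2-sided exact permutation test, p = 0.0260, adjusted over 2 tests p = 0.0260). The ratio cannot exceed the inverse of the Gjb2 share, which was larger after birth, so a lower ceiling and a looser tie between the transcripts cannot be told apart here. Without any 1 of the E16 libraries the adjusted p of this exact test was 0.0571, and among medial KO cells alone the difference was 0.06 (p = 0.740). Over all cells, Gjb6 also made up a larger part of the UMIs of both genes after birth. This share was 3.5% and 3.2% in the E14 libraries, 9.03%, 5.86% and 6.67% in those of E16, 13.1%, 10.3%, 13.0% and 21.4% in those of P1, and 12.01% and 11.2% in those of P7. All 6 postnatal libraries lay above all 5 embryonic ones. The means were 5.65% ± 2.40 and 13.5% ± 4.02 (SD), with a difference of 7.85 percentage points (2-sided exact permutation test, p = 0.00433, adjusted over 2 tests p = 0.00866). That unadjusted p is the smallest this test can give with these numbers of libraries. In medial KO cells alone the difference was 6.96 percentage points, with the same adjusted p of 0.00866 in the exact permutation test. In other gates the share is given as a mean over libraries from E14 to P7, with no test. It was 3.52%, 7.57%, 15.1% and 11.8% in ungated cells, 0, 7.33%, 15.3% and (1 library) 16.2% in IPhCs, and 0.667%, 3.77%, 2.51% and 7.46% in the lateral gate. The lateral and interdental E16 values come from 2 libraries each, with 3 and 2 Gjb6 UMIs (lateral) and 1 and 5 (interdental). The lateral libraries were at 5.26% and 2.27% at E16 and at 0 to 4.89% at P1. These ranges overlapped, so the lateral gate showed no order of embryonic below postnatal ages. Interdental cells, with 9.44%, 4.33%, 5.70% and 9.13%, and the gate of the lesser epithelial ridge, with 2.02%, 1.89%, 2.72% and (1 library) 0, had no such order either. In HCs the share was 7.10% at E16, 13.7% at P1 and 6.45% at P7. Its E16 libraries ranged from 2.44% to 16.1%, with 1, 4 and 5 Gjb6 UMIs, and its P7 libraries had 4 and 5. No change with age is read from these HC shares.

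**Figure D4:**
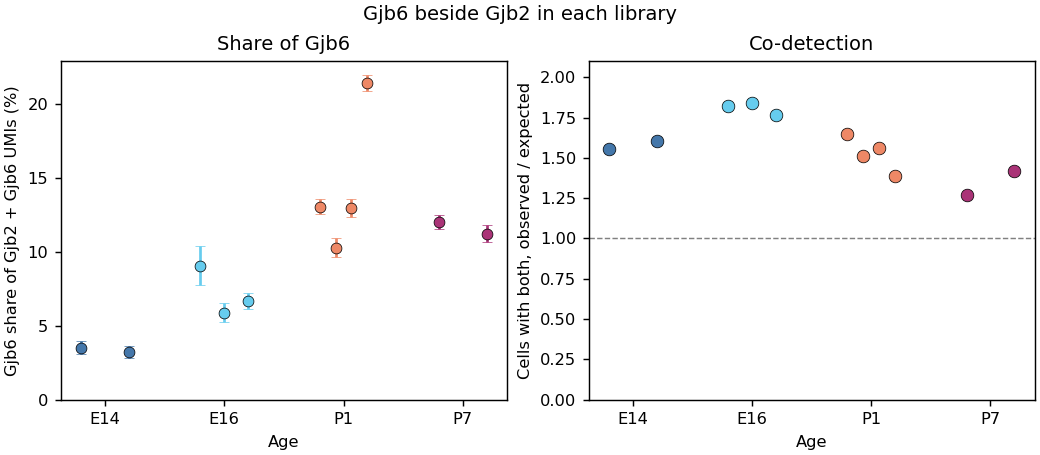
Left, Gjb6 as a percentage of the UMIs of Gjb2 plus Gjb6, and right, the ratio of observed to expected co-detection of both transcripts in cells thinned to 1500 UMIs, by age with 1 point per library, bars on the left at the 95% binomial interval of the library's UMIs, and a dashed line at 1 on the right. The share lies at or below 9.03% before birth and at or above 10.3% after it, and each ratio lies above 1.

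Gjb2 was among the genes whose pattern was most like that of Gjb6. Over 34 combinations of age and gate that share libraries, and over 9239 genes, Pearson's r of the log2 levels of Gjb2 and Gjb6 was 0.73, which placed Gjb6 at rank 6 for Gjb2 and Gjb2 at rank 3 for Gjb6. The genes most like Gjb2 were Ccdc80 (0.79), Cpxm2 (0.77), Ier5 (0.76), Cpa6 (0.74) and Galk1 (0.73). For Gjb6 they were Cpxm2 (0.78), Cpa6 (0.74), Gjb2, Prkcq (0.71) and Tbcel (0.71). Gjc1 went with other genes, Zbtb12 (0.85), Sox11 (0.78), Efna4 (0.77), Pgrmc1 (0.76) and Ctgf (0.76), and its r was 0.09 with Gjb2 and -0.01 with Gjb6. Gja1 was below the 10 CPM minimum in this set and has no such list.

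Other connexins were mostly under the minimum level. Of 16 other connexins listed, 5 were in all files and none passed the minimum mean level of 10 CPM over the whole floor. Gjc3, a glial connexin, averaged 17.5 CPM at P7. Of 3 pannexins, which form channels in single membranes, Panx1 was tested and fell by 0.44 from P1 to P7 (adjusted p = 0.0468). Of 7 genes for connexin trafficking and binding, 6 were tested. Tjp1, the scaffold that binds connexin tails, rose by 0.72 from E14 to E16 (adjusted p = 0.0343) and fell by 1.06 from E16 to P1 (adjusted p = 0.000897), where Nedd4, a ubiquitin ligase that acts on connexins, fell by 0.87 (adjusted p = 0.0372). From P1 to P7, Nov, a secreted protein that binds connexins, rose by 3.27 (adjusted p = 0.000101). Its level was 35.5 and 206 CPM in P7 libraries 4 and 5, in the same order as the mesenchymal (368 and 923 CPM) and glial (1018 and 3007 CPM) marker sums, whose part in this rise was not tested, and at most 2.49 CPM in earlier libraries. The list's median log2 difference was -0.13, -0.37 and 0.32 in these steps, beside -0.15, 0.00 and -0.02 for all genes tested.

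Of 12 genes for potassium and chloride handling, with which gap junctions share the recycling of potassium, 7 were tested. From E14 to E16, 1 rose, the sodium-potassium-chloride cotransporter Slc12a2 (1.08, adjusted p = 0.0386). From E16 to P1, the sodium pump subunit Atp1b1 rose by 1.09 (adjusted p = 0.000975). From P1 to P7, the potassium channel subunit Kcnj16 rose by 2.03 (adjusted p = 9.64e-07) and the cotransporter Slc12a7 by 1.16 (adjusted p = 0.00142), and Atp1b2 also rose, while Slc12a2 fell by 2.58 (adjusted p = 2.46e-05). The list's median was 0.43, 0.29 and 1.00 in these steps. In HCs at P1, Slc12a7 was higher than in other cells by 0.87 (adjusted p = 0.0161), Atp1b2 was higher by 0.71 (adjusted p = 0.0199), and Slc12a2 was lower by 2.18 (adjusted p = 1.02e-07). In IPhCs at P1, Kcnj16 was higher by 1.83 (adjusted p = 0.0345) and Slc12a2 lower by 3.53 (adjusted p = 6.05e-05) among 8 tested.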

How the data were processed

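Cells were captured with the 10x Chromium system. Per the submitters' processing notes, reads were aligned to mm10 with Cell Ranger 2.1.1 and cells were handled in Seurat 2.0. The deposited values are natural log values, made by the authors as ln(1 + 10000 × the fraction of a cell's UMIs that fell on the gene), in 1 table per age without the cross-library merging used for their maps. Undoing this scale gave UMI numbers that lay at most 0.000468 from a whole number for 100% of values above 0, from which CPM were computed. No count model was run.

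A library was the replicate. Per library, CPM were averaged over all its cells or over gated cells (at least 5), and log2(CPM + 10) was tested with limma 3.58.1 in R 4.3.3 for genes listed at all ages with a mean of at least 10 CPM, Benjamini-Hochberg adjusted over all genes tested at 0.05. A gate took cells with at least 3 markers above 0 and a mean z-score of at least 0.5 and at least 0.5 times its 99.9th percentile in that age. Single values were tested by exact permutation over libraries with scipy 1.17.1. Tests were checked on simulated data. Alternatives covered pseudocount, filter, gates, Leiden clusters (scanpy 1.11.5), centring, blocks, pooled counts and left-out libraries. No Leiden cluster was named medial KO at P7, or IPhC at E14 or P7, so that alternative does not cover those groups.

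The members, lists and gates were chosen with earlier results of these data known. The named genes are the 4 members, the listed pathway genes past the minimum with up to 4 examples per list and comparison, and the 5 genes most alike in pattern. Libraries of 1 age shared 133 cell barcodes. No doublet caller was run, and cells with over 3000 genes, 892, 149, 1134 and 265 at the 4 ages, stayed in except in an alternative. Gene positions come from GENCODE vM21 on GRCm38, which is mm10. Of the 4 genes, 3 matched the RefSeq promoter table, and Gjc1 is named only. Single-gene values of some genes of the pathway lists are not reported here, though the list medians include them.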

Additional observations from a re-analysis of the deposited data

Results flagged for a closer look

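In 30 groups of 4 P1 libraries, 3 held a library far from the others by Dixon's 95% criterion, which chance meets in about 1 of 20 groups. Gjb6 in medial KO was at 146 CPM in P1 replicate 4. Gja1 in HCs was at 0.746 CPM in P1 replicate 2, and Gja1 in the lateral gate was at 2.65 CPM in P1 replicate 3. Each of these Gja1 values rests on 1 or 2 UMIs, the only ones of the gene in that gate at P1, with the other 3 libraries at 0, so any UMI would have met the criterion.

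Some differences between a gate and the other cells changed with age by a test of the change itself. For HCs from E16 to P1, the change was -1.83 for Gjb2 and -1.46 for Gjb6 on the log2 scale. In the lateral gate from P1 to P7, it was 1.93 for Gjb2 and 2.36 for Gjb6. For medial KO over the same step, it was 0.54 for Gjb2 and 1.19 for Gjb6, and for IPhCs it was -1.31 for Gjb2, where P7 is 1 library and has no spread of its own. The changes from P1 to P7 were added as tests after the effects at each age had been seen.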

How the results depend on the processing

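Of the 73 results with a test, 45 passed their threshold. Among 808 alternatives of these, 757 kept the direction and the call, 49 kept the direction and lost the call, and 2 reversed. Among 506 alternatives of the others, 458 kept the direction and missed the threshold as before, 11 kept the direction and passed, and 37 reversed, of which 0 passed. The causes were not tested. Alternatives that leave out a library of an age outside a limma comparison change its error but cannot move its difference. Their direction was thus fixed in advance, so the counts of kept direction overstate how far these results were tested. From E14 to E16 over the whole floor, Gjb2 was at 0.015 with pooled UMIs and at 0.091 centred on the library median. The P1 to P7 change of the HC difference of Gjb2 was 0.11 with a pseudocount of 1 CPM, 0.20 with a looser gate, 0.11 with a stricter one, 0.36 with Leiden clusters and 0.032 without cells of more than 3000 genes. At P7 the lateral difference of Gjb2 was 0.063 with a looser gate, 0.096 with Leiden clusters and 0.035 without cells of more than 3000 genes. In medial KO at E16, Gjb2 was at 0.13, 0.074 and 0.21 with a looser gate, a stricter gate and Leiden clusters, and Gjb6 at 0.27 with Leiden clusters. At P1, Gjb2 there was at -0.43 and Gjb6 at -0.90 without the library block, and Gjb6 at -0.84 with a stricter gate, with none of these passing. At P7, Gjb6 there was at -0.11 with a looser gate. Within medial KO, Gjb2 from E14 to E16 was at 0.097 with pooled UMIs, 0.059 with a looser gate, 0.13 with a stricter gate and 0.17 when centred. With a stricter gate, Gjb6 in that step was at -0.17, Gjb2 from E16 to P1 at -0.068 and Gjb6 from P1 to P7 at 1.56 (not passing). Gja1 from P1 to P7 was at 0.12 with a looser gate. The co-detection difference was 0.063 in medial KO alone.

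With 1 library left out at a time, the whole-floor difference from E14 to E16 was -0.22 to 0.10 for Gjb2 and 0.55 to 0.94 for Gjb6. From E16 to P1 it was 0.32 to 0.61 for Gjb2 and -0.0026 to 0.29 for Gjc1, and from P1 to P7 0.65 to 1.14 for Gjb2 and 0.34 to 0.89 for Gjb6. The change of the HC difference of Gjb2 from P1 to P7 was -0.58 to 0.46, and the lateral difference of Gjb2 at P7 was -0.31 to 0.15. For medial KO against other cells, Gjb2 was at -0.21 to 0.042 at E14 and at -0.082 to 0.014 at E16, and Gjb6 at -0.39 to 0.066 at E16. Within medial KO, Gjb2 was at -0.29 to 0.26 from E14 to E16 and at -0.069 to 0.28 from E16 to P1. Within the lateral gate, Gjb6 from E16 to P1 was at -0.18 to 0.33. The co-detection difference was -0.29 to -0.21.

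Replicate numbers were not taken to pair libraries of different ages. Deviations from the age mean correlated over genes at -0.28 to 0.11 between libraries of different ages with the same number. Over all pairs of different ages they correlated at -0.28 to 0.29. Such deviations cancel within an age, so the signs over all pairs must mix, and pairing was not tested by these values. With the replicate number as a block, which P1 and P7 are too thinly matched to allow for their contrast, Gjb6 from E14 to E16 was 0.64 (adjusted p = 0.039), Gjc1 from E16 to P1 -0.0026, and Gjb6 in the lateral gate from E16 to P1 -0.18. The number of all genes that passed moved by over 1.5 times under some alternative in 24 of 30 comparisons, from 78 to 10 within medial KO from E14 to E16 with a pseudocount of 1 CPM, and from 121 to 511 for the P1 to P7 change in IPhCs with no filter. Depth limits the smallest gates. At E14 these hold 13 cells (IPhC gate) and 20 HCs, and at P7 14 cells (IPhC gate) and 30 medial KO cells.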
